A study of Mus musculus with 2 samples.

Results

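Of the 31053 genes in the deposited tables, 9 genes of glutathione metabolism were followed through the cell classes of mouse islets. They were taken by symbol: *Gclc* and *Gclm*, *Gstp1*, *Gstm1*, *Gsta4* and *Mgst1*, and *Gpx1*, *Gpx3* and *Gpx4*. *Gstp1* had been chosen by its measured level, which was higher in the islets of mice without *Npc1*, so its rise is given below as a description of the choice, and *Gstp2* and *Gstp3* were added as its closest paralogs. All 9 were found.

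The islets came from mice aged 2 weeks, on a C57BL/6J background. One group held whole-body *Npc1*-/- mice, which lack the NPC1 protein that moves cholesterol out of lysosomes, and the other held their wild type (WT) littermates. Each group was 1 library, made from the pooled islets of 3 female mice that were dissociated with trypsin and captured with 10x Genomics droplets. With 1 library per genotype there is no replicate and no test between genotypes. Every interval given is a 95% interval for counting error only, and differences between mice, preparations and genotypes cannot be told apart.

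Glutathione is a tripeptide thiol that is the main soluble antioxidant of cells. Its synthesis starts with glutamate-cysteine ligase, built from a catalytic subunit (*Gclc*) and a modifier subunit (*Gclm*). Glutathione S-transferases join it to electrophilic compounds. The pi class (*Gstp1*), mu class (*Gstm1*) and alpha class (*Gsta4*, which acts on lipid aldehydes) are soluble, and *Mgst1* is membrane-bound. Glutathione peroxidases spend it on peroxides: *Gpx1* in the cytosol and mitochondria, *Gpx3* as a secreted enzyme and *Gpx4* on lipid hydroperoxides within membranes. β cells are known for low levels of peroxide-removing enzymes.

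The WT library held 8569 barcodes with 114324626 UMIs (unique molecular identifiers, each standing for 1 captured RNA molecule), against 127122035 UMIs over 7646 barcodes for *Npc1*-/-. Of these, 4628 and 4269 barcodes passed the limits on detected genes, UMIs, and mitochondrial and haemoglobin transcripts, with medians of 18905 and 21381 UMIs. The libraries shared 12 barcode sequences, 3 of them among the kept barcodes. *Npc1* itself, the check of the labels, stood at 8.40 CPM (counts per 1000000 UMIs) in the WT and 4.14 CPM in the *Npc1*-/- library, or 0.493 times (0.436 to 0.558). Where the knockout allele is changed relative to the counted 3′ end is not given in the sources used here, so a remaining count does not go against the label. Barcodes were assigned by their leading hormone or, without one, by marker genes. This gave 1833 WT and 1826 *Npc1*-/- β-like cells, 1048 and 857 α-like, 189 and 141 δ-like, 426 and 433 endothelial-like, 232 and 252 stellate-like, 64 and 65 mesenchymal-like, and 54 and 33 macrophage-like cells. Another 411 and 442 cells had *Ppy* and *Pyy* as leading hormones. Since *Sst* and the α marker *Gc* stood among their 10 leading genes beside *Ppy* and *Pyy*, they are called Ppy/Pyy-leading cells. Schwann-like cells (29 and 35) were described as well. In all named classes each marker gene was detected and was at least 2-fold over all other kept barcodes pooled. The classes were assigned by hormones and markers from these same lists, so this is no separate check of their names.

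The pi-class genes lie side by side on chromosome 19, which bears on what a *Gstp1* count holds. In GRCm38 (mm10, the build of the deposited counts), GENCODE places *Gstp1* (ENSMUSG00000060803) at chr19:4035407-4037985 and *Gstp2* (ENSMUSG00000038155) at chr19:4040285-4046023, both on the minus strand and 2299 bases apart. *Gstp3* (ENSMUSG00000058216) follows at chr19:4057477-4059569. The coding sequences of *Gstp1* and *Gstp2* are both 633 bases long and identical at 621 of them (98.1%), while *Gstp1* and *Gstp3* share 72.2%. Of the 12 differing bases, 6 fall in the first 90 coding bases, which are printed here from the GENCODE transcripts, 5′ to 3′, with these bases in capitals.
Gstp1: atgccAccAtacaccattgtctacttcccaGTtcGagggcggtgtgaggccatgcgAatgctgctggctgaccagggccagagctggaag
Gstp2: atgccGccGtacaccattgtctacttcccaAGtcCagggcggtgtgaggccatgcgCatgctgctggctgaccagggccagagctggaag

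The 3′ ends, where this assay reads, are more alike still. Of the 411 stretches of 90 bases in the last 500 bases of the *Gstp1* transcript, 280 (68.1%) occur letter for letter in *Gstp2*, and 214 of the 411 also in the pseudogene *Gstp-ps*. All 280 are those nearest the 3′ end. A read that lies wholly within this shared sequence fits several genes equally well and is not counted for any of them by the counting software. *Gstp1* counts thus rest on reads that reach further upstream. Levels of *Gstp1* may be too low for this reason, and *Gstp1* and *Gstp2* are separable only in part. For *Gpx4*, 321 of its 411 stretches (78.1%) are found in the pseudogene *Gpx4-ps2*. Whether this pseudogene is among the counted genes was not checked, so a loss of *Gpx4* reads is not shown. *Gclm* overlaps *Gm17494* and *Gm6061*, which are annotated but absent from the counted genes. No stretch of the other 6 members was shared with another gene.

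The paralogs also share bases in front of their starts. The 250 bases upstream of the RefSeq start (GRCm38.p6) are shown for *Gstp1*, chr19:4037913-4038162, and *Gstp2*, chr19:4042222-4042471, both read from the minus strand, because both hold the AP-1 motif TGAGTCA, in capitals.
Gstp1: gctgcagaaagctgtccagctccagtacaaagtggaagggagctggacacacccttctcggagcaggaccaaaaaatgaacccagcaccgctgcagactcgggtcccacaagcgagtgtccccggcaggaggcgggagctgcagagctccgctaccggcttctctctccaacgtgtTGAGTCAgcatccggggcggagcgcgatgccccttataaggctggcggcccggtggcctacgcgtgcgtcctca
Gstp2: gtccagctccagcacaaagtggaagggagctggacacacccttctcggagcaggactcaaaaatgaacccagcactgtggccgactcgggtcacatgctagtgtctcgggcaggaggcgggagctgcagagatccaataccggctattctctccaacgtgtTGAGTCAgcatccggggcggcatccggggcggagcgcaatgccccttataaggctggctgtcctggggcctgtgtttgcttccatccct

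TGAGTCA (the same letters were sought on both strands) starts 74 bases before the RefSeq start of *Gstp1* and 89 before that of *Gstp2*. Both GENCODE gene models begin further upstream, by 73 bases for *Gstp1* and 3802 for *Gstp2*, so the motif is described relative to RefSeq alone. It occurs in 1709 of 32851 RefSeq promoter windows of 300 bases (5.20%) and was sought after these sequences had been read. The core of the antioxidant response element, TGACNNNGC on either strand, occurs in 4071 windows (12.4%). Among the 7 members with a window, it lies 134 bases before the start of *Gclm* and 56 bases before that of *Mgst1*, and in no window of *Gstp1*, *Gstm1*, *Gpx1*, *Gpx3* or *Gpx4*. Only this spelling was sought, so its absence does not mean that a window lacks every form of the element. In *Gstp1* and *Gstp2* the letters gc follow TGAGTCA, which gives the spelling TGACNNNGC but with G in place of its C. A match is a match of letters and no evidence of binding.

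Before the changes, the levels place each enzyme in its cells. CPM values compare 1 gene between classes here, not genes with each other. Their totals include the hormone transcripts, whose share differed between classes. Both subunits of glutamate-cysteine ligase were tested in all 8 classes. By its mean over the libraries, *Gclm* was lowest in stellate-like cells, at 37.9 CPM in WT and 52.4 in *Npc1*-/-, and highest in δ-like cells at 132 and 125, with α-like (116 and 115) and Ppy/Pyy-leading cells (123 and 124) not apart from δ-like cells beyond the counting intervals. β-like cells had 79.8 and 82.7 CPM. *Gclc* was lowest in β-like cells (12.0 and 12.8 CPM) and highest in δ-like cells (30.9 and 27.6), and no neighbours in its order were separated in both libraries.

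The transferases were less even. *Gstp1* was highest in Schwann-like cells (506 and 797 CPM), followed by stellate-like cells (53.4 and 104), and lowest in β-like cells (13.1 and 24.6), where its mean over the libraries was next to that of endothelial-like cells (17.8 and 27.4) and not separated from it in both libraries. *Gstm1* was highest in mesenchymal-like cells (143 and 149 CPM) and lowest in α-like cells (10.0 and 10.9), below β-like cells (19.5 and 22.6) in both libraries. *Mgst1* divided the hormone cells. It was at 24.4 and 54.8 CPM in α-like cells, against 0.712 and 0.923 in β-like, 0.368 and 0 in δ-like and 1.23 and 4.28 in Ppy/Pyy-leading cells. Outside the hormone cells *Mgst1* reached 34.2 and 39.0 CPM in endothelial-like and 74.5 and 41.4 in mesenchymal-like cells. *Gsta4* stayed at or below 6.13 CPM in all 8 hormone and marker classes and stood out in Schwann-like cells at 185 and 35.0 CPM, from 38 and 8 UMIs.

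Each peroxidase had its own distribution. *Gpx3* was at 994 and 805 CPM in α-like cells, 425 and 389 in δ-like and 396 and 333 in Ppy/Pyy-leading cells, and at 35.0 and 36.9 in β-like cells. After every cell was thinned to 5000 UMIs, 96.1% of WT and 93.9% of *Npc1*-/- α-like cells had a *Gpx3* UMI, against 11.6% and 13.3% of β-like cells and 6.33% and 3.99% of endothelial-like cells. Free RNA bears on the β-like value. For each 1000 *Gcg* UMIs, β-like cells held 10.7 *Gpx3* UMIs in WT and 14.9 in *Npc1*-/-. This was above the ratio of α-like cells (3.24 and 2.69), and within the range of the endothelial-, stellate-, mesenchymal- and macrophage-like cells, which was 6.82 to 14.6 in WT and 4.75 to 40.6 in *Npc1*-/-. How much of the *Gpx3* of β-like cells was made in them was not tested.

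*Gpx1* was highest in macrophage-like cells (1006 and 846 CPM), next in endothelial-like (249 and 227), and lowest in β-like cells (44.1 and 46.2), below α-like cells (72.0 and 66.5) in both libraries. *Gpx4* was likewise lowest in β-like cells (192 and 200 CPM), with 280 and 285 in α-like, 605 and 593 in endothelial-like and 1119 and 916 in Schwann-like cells. By CPM, β-like cells thus took the last place in the order of classes for *Gpx1*, *Gpx4*, *Gstp1*, *Gsta4* and *Gclc*. For *Gstp1*, *Gsta4* and *Gclc* the class above was not separated from them in both libraries. Insulin filled 518526 CPM of the β-like total in the WT library and 492755 in the other. The leading hormone of α-like cells, *Gcg*, filled 306391 and 299524 CPM of theirs. A larger hormone share lowers the CPM of all other genes, and its part in these last places was not tested.

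**Figure D1:**
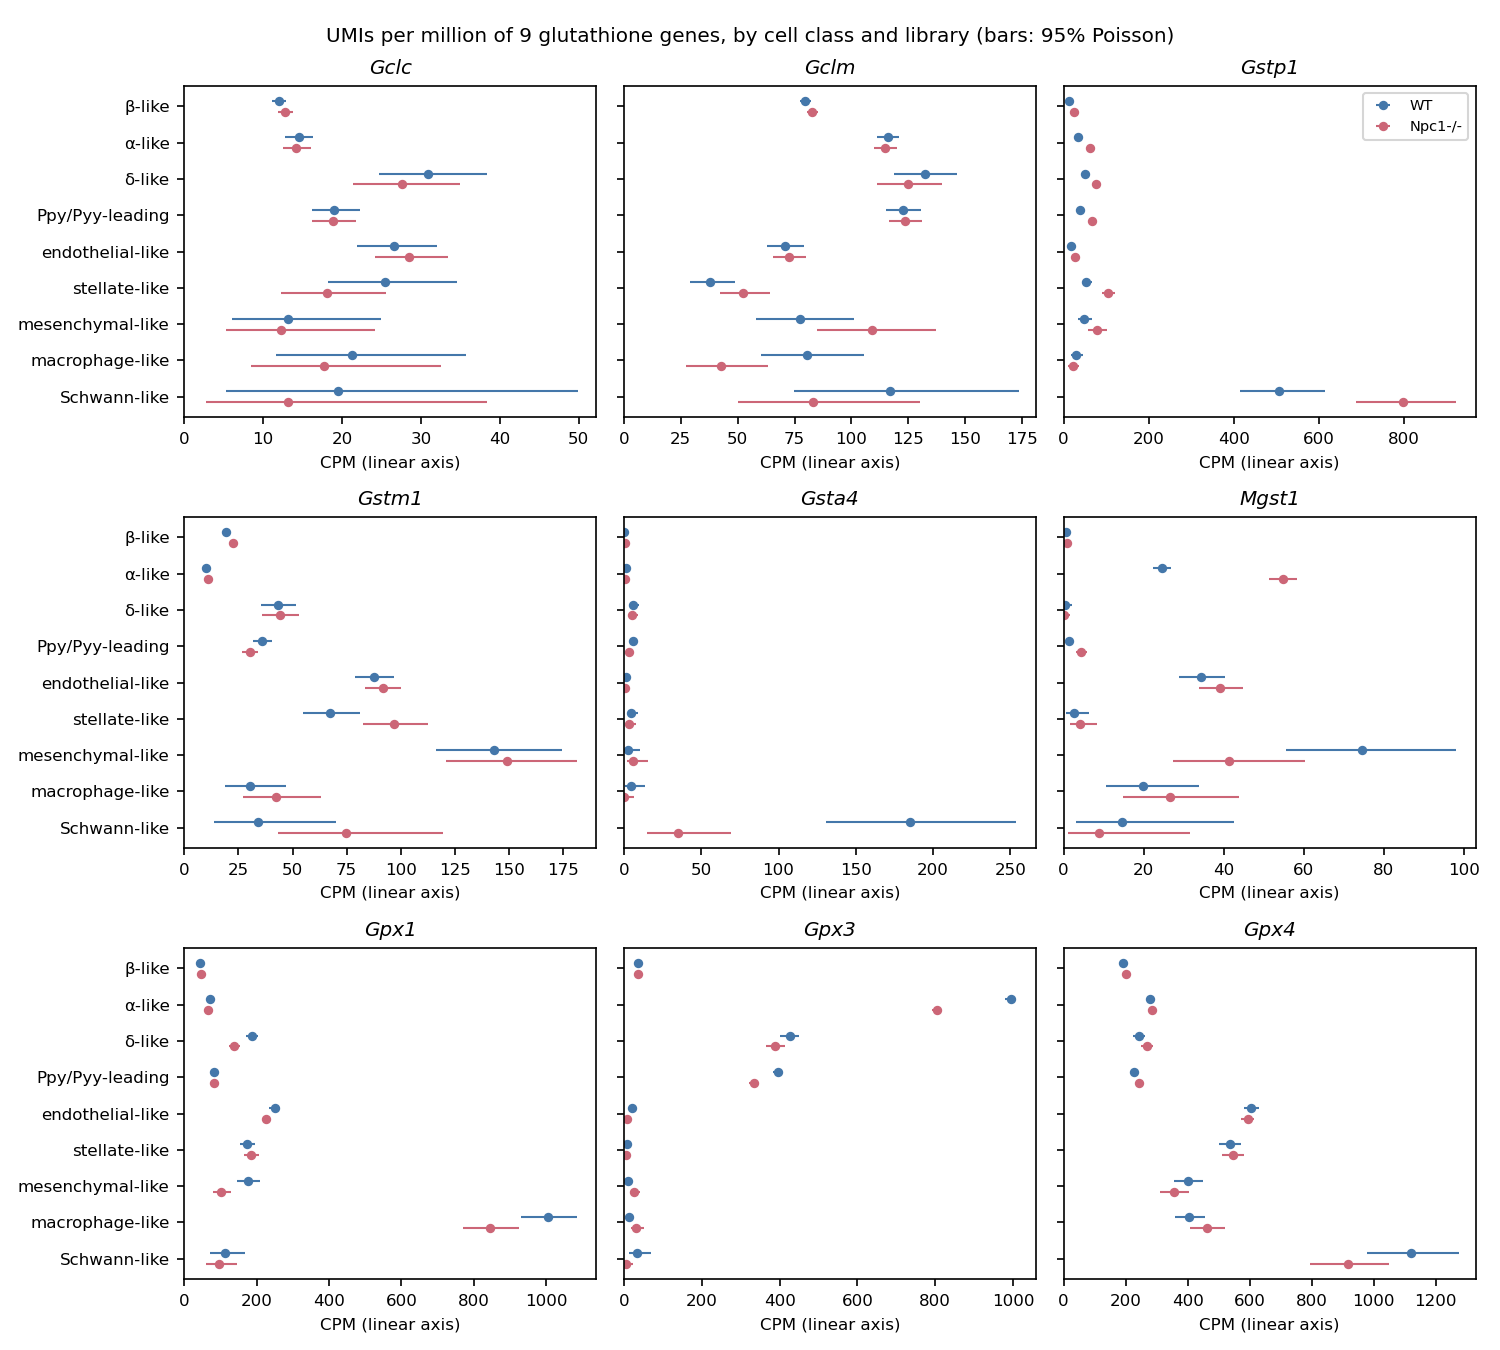
Levels (CPM, linear axes) of the 9 glutathione genes in 9 cell classes, with 1 point for the WT library (blue), 1 point for the Npc1-/- library (red) and bars for the 95% Poisson interval. *Gpx3* stands highest in α-like cells (994 and 805 CPM), *Gpx1* in macrophage-like cells (1006 and 846 CPM), and *Gstp1* and *Gsta4* in Schwann-like cells.

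The question between genotypes was which of these enzymes differed without *Npc1*. Ratios are log2 of *Npc1*-/- over WT CPM, with 0.5 counts added, minus the median of all genes tested in the class (at least 5 CPM in either library). That median was 0.12 in β-like cells and smaller in the other classes. A gene is counted as higher or lower past 0.5 on this scale.

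In β-like cells, 1 of the 7 members tested was higher in *Npc1*-/-, *Gstp1*, and 0 were lower. Of all 8858 genes tested there, 2.16% were higher and 2.12% lower. Since *Gstp1* was picked for this contrast, nothing is read from its count. *Gstp1* stood at 13.1 CPM (12.1 to 14.1, 716 UMIs) in the WT library and 24.6 CPM (23.3 to 25.9, 1330 UMIs) in the *Npc1*-/- library, a relative log2 ratio of 0.79 (0.66 to 0.92). The share of thinned β-like cells with a *Gstp1* UMI was 7.03% (5.89 to 8.31) in WT and 12.0% (10.5 to 13.6) in *Npc1*-/-. The other 6 members tested lay between -0.07 and 0.09. The median of the 7 was -0.04, where the median gene is 0 by construction.

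For those 6, the levels in β-like cells were close to equal in both libraries. *Gclm* went from 79.8 CPM in WT to 82.7 in *Npc1*-/- (-0.07, -0.13 to -0.01) and *Gclc* from 12.0 to 12.8 (-0.03, -0.18 to 0.13). *Gstm1* went from 19.5 to 22.6 (0.09, -0.03 to 0.21) and *Gpx1* from 44.1 to 46.2 (-0.05, -0.13 to 0.03). *Gpx3* went from 35.0 to 36.9 (-0.04, -0.13 to 0.05) and *Gpx4* from 192 to 200 (-0.06, -0.10 to -0.03). Each of these intervals stayed inside the limit of 0.5 on both sides. On plain CPM, without the shift by the median gene, *Gclc*, *Gclm*, *Gpx1*, *Gpx3* and *Gpx4* lay above 0 (0.05 to 0.09), so no direction is given for them. *Gsta4* (15 and 36 UMIs) and *Mgst1* (39 and 50 UMIs) were below 5 CPM and were not tested.

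*Gstp1* was also higher in most other classes. In α-like cells it was at 33.7 CPM in WT and 61.5 in *Npc1*-/- (0.84, 0.69 to 0.98). It was at 50.8 and 76.1 in δ-like (0.57, 0.25 to 0.90) and at 38.3 and 67.8 in Ppy/Pyy-leading cells (0.76, 0.56 to 0.96). The *Npc1*-/- library was higher in all 4 hormone classes. Cells without a leading hormone showed the same order, with 17.8 and 27.4 CPM in endothelial-like (0.60, 0.20 to 1.03), 53.4 and 104 in stellate-like (0.95, 0.58 to 1.35) and 48.2 and 78.2 in mesenchymal-like cells (0.74, 0.09 to 1.43). Schwann-like cells had 506 and 797 CPM (0.60, 0.25 to 0.96). Macrophage-like cells were the exception among these classes (-0.39, -1.59 to 0.71), and neither direction could be seen at this depth. They had 28.9 CPM from 19 UMIs in WT and 21.2 from 12 UMIs in *Npc1*-/-. Kept barcodes outside the classes had overlapping intervals as well. Those assigned to no class were at 75.7 CPM (60.5 to 93.6) in WT and 83.4 (70.9 to 97.4) in *Npc1*-/-. Duct-like barcodes were at 54.2 CPM (28.9 to 92.7) in WT and 70.7 (52.6 to 92.9) in *Npc1*-/-. *Gstp1* was thus past the limit in 7 of the 8 classes of the rule, which is a description, since the gene was chosen for being higher in *Npc1*-/-. All classes come from the same 2 libraries, so this is 1 pair of libraries seen in 7 classes and not 7 replicates.

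The size in 2 of these classes depended on which barcodes were used. In stellate-like cells the ratio was 0.36 under the stricter limits of more than 2000 genes and under 5% mitochondrial UMIs. In δ-like cells, of which 56.6% in WT and 71.6% in *Npc1*-/- carried a further hormone at 10% of UMIs or more, it was 0.36 without such barcodes. Barcodes with at least 0.5% of UMIs from stress genes (*Fos*, *Jun*, *Hspa1a* and others) were more frequent in WT, at 1.42% against 0% of β-like, 8.30% against 0.233% of α-like and 42.0% against 25.4% of endothelial-like cells. Such barcodes made up 45.3% of WT and 24.6% of *Npc1*-/- stellate-like cells. Without them the *Gstp1* ratio was 0.79 in β-like cells, where they were few. Over 16 alternatives, which include leaving them out, it was 0.57 to 0.87 in endothelial-like and 0.36 to 1.08 in stellate-like cells.

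**Figure D2:**
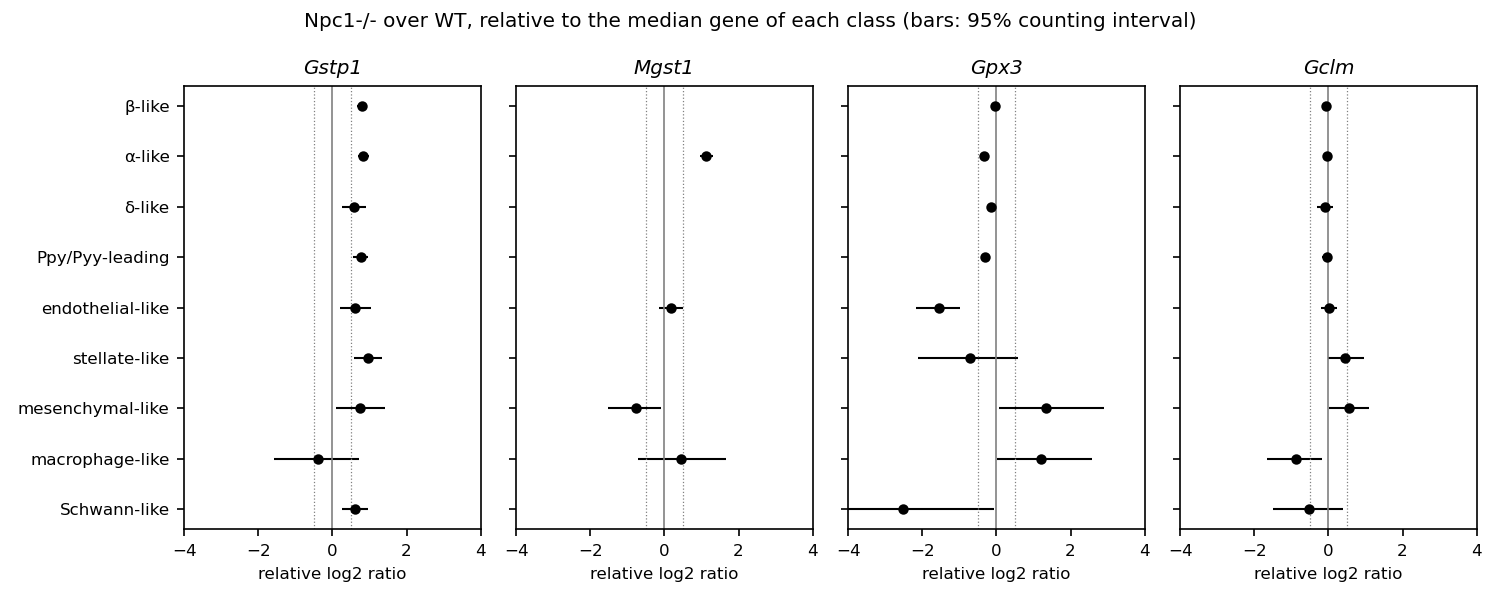
Relative log2 ratio (Npc1-/- over WT, minus the median gene of the class) of *Gstp1*, *Mgst1*, *Gpx3* and *Gclm* in each class where the gene was tested, with bars for the 95% counting interval, a line at 0 and dotted lines at the limit of 0.5. *Gstp1* lies above 0.5 in every class but macrophage-like cells, and the bar of *Gpx3* in Schwann-like cells runs past the left edge to -8.51.

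Neither paralog carried counts of this size. *Gstp2* had 8 UMIs in WT and 16 in *Npc1*-/- in β-like cells, 3 and 11 in α-like, and at most 4.97 CPM in any class. *Gstp3* had 0 UMIs in both libraries in β-, α-, δ-, stellate-, mesenchymal- and Schwann-like cells. It was counted in macrophage-like cells with 11 UMIs (16.7 CPM) in WT and 0 in *Npc1*-/-, where the upper bound is 6.53 CPM. Reads that lie wholly within the sequence shared by *Gstp1* and *Gstp2* enter neither count. Of the 411 stretches of *Gstp2*, 321 (78.1%) are shared with *Gstp1* or *Gstp-ps*, so its counts may be too low as well.

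Within β-like cells, *Gstp1* differed between strata of cells as well as between the libraries. *Ucn3*, urocortin 3, marks mature β cells. In cells without a *Ucn3* UMI (230 WT and 440 *Npc1*-/-), *Gstp1* was at 27.3 and 34.7 CPM, and the relative ratio was 0.27 (-0.01 to 0.56). Those with one (1603 and 1386) had 11.6 and 22.0 CPM and a ratio of 0.82 (0.67 to 0.97). The level was higher in *Ucn3*-negative cells in both libraries, by more than the counting intervals. The other members tested were higher there too, among them *Gclm* (105 and 100 CPM, against 77.2 and 78.2 with *Ucn3*) and *Gpx4* (212 and 220, against 190 and 194). The strata were not matched for depth or insulin share, and the part of these was not tested. The PP-fold hormone genes divided the cells in a similar way. Below the pooled median of 0.541% *Ppy* and *Pyy* UMIs (1073 and 756 cells), *Gstp1* was at 9.72 and 17.3 CPM with a ratio of 0.76 (0.55 to 0.97), and from that median upward (760 and 1070 cells) at 18.3 and 30.4 CPM with a ratio of 0.61 (0.44 to 0.78). The *Npc1*-/- library was higher in each of these 4 strata, although the interval without *Ucn3* reached 0. The *Npc1*-/- library held more *Ucn3*-negative and more *Ppy*- and *Pyy*-rich β-like cells, and the part of this in the ratio of the whole class (0.79, beside 0.27 and 0.82 without and with *Ucn3* and 0.76 and 0.61 in the *Ppy* and *Pyy* strata) was not tested.

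*Gpx3* followed the same division of β-like cells. It was at 14.0 CPM in WT and 14.3 in *Npc1*-/- below the *Ppy* and *Pyy* median, and at 67.6 and 54.8 above it. Without *Ucn3* it was at 80.7 and 64.0 CPM, and with *Ucn3* at 30.2 and 30.1. The relative ratio was -0.42 (-0.53 to -0.32) in the *Ppy*- and *Pyy*-rich and -0.41 (-0.58 to -0.23) in the *Ucn3*-negative cells. It was -0.03 (-0.24 to 0.17) in the *Ppy*- and *Pyy*-poor cells. In the whole class the ratio was -0.04. The *Npc1*-/- library held more of the *Ppy*- and *Pyy*-rich and *Ucn3*-negative cells. The part of this in the class ratio, and of doublets and free RNA in the strata, was not tested.

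**Figure D3:**
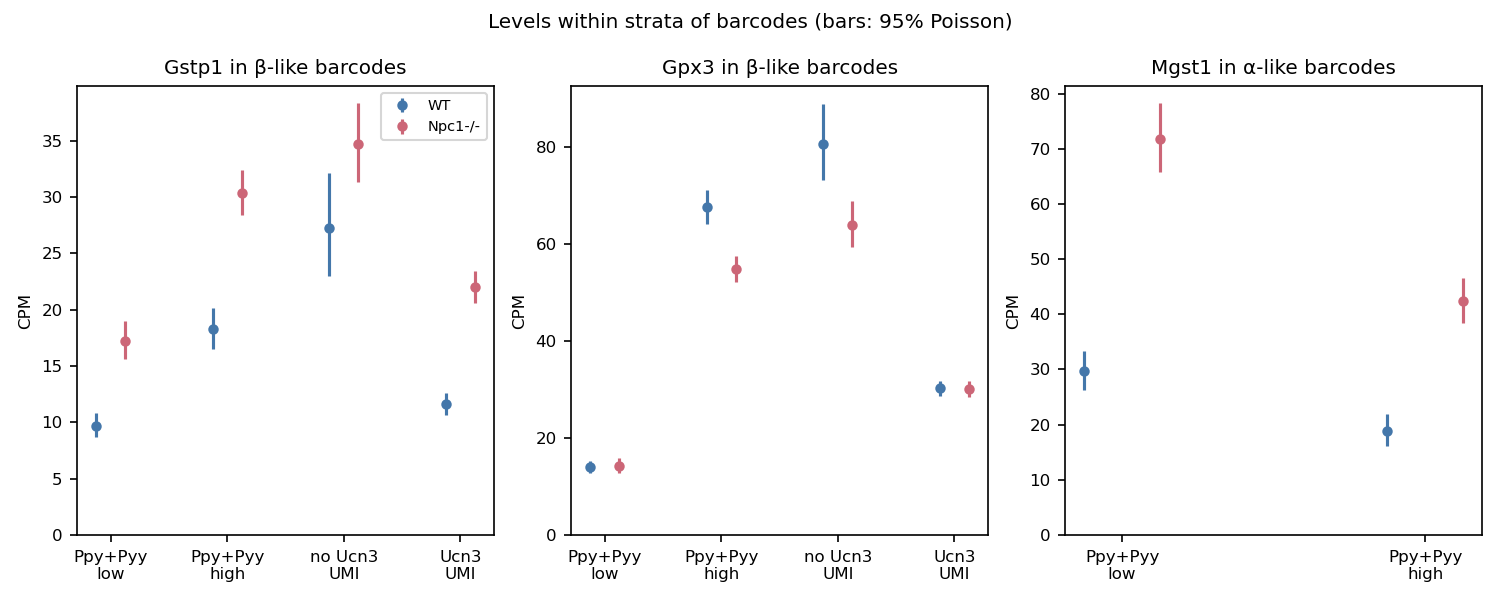
CPM of *Gstp1* and *Gpx3* in β-like cells and of *Mgst1* in α-like cells, split by the share of *Ppy* and *Pyy* UMIs (below, or from the pooled median of the class upward) and, for β-like cells, by a *Ucn3* UMI. Points are the WT (blue) and Npc1-/- (red) library with 95% Poisson bars, and *Gstp1* and *Gpx3* are both higher in cells rich in *Ppy* and *Pyy* or without *Ucn3*.

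In α-like cells 2 of the 8 members tested were higher in *Npc1*-/- and 0 were lower, beside 1.13% and 1.47% of all 9897 genes tested. *Gstp1*, which was picked for being higher in *Npc1*-/-, was the first and *Mgst1* the second. Nothing is read from the place of *Gstp1* in this count or in those of the other classes and lists below. *Mgst1* was counted with 452 UMIs (24.4 CPM, 22.2 to 26.8) in the WT library and 940 UMIs (54.8 CPM, 51.3 to 58.4) in the *Npc1*-/- library, a relative log2 ratio of 1.13 (0.97 to 1.30). The intervals of the libraries were far apart. After thinning, 11.2% (9.28 to 13.3) of WT and 21.9% (19.1 to 24.8) of *Npc1*-/- α-like cells had an *Mgst1* UMI, against 0.277% and 0.665% of β-like cells. *Mgst1* was higher in *Npc1*-/- both below the *Ppy* and *Pyy* median of α-like cells (29.7 and 71.8 CPM, 1.23) and above it (18.8 and 42.4 CPM, 1.14). In endothelial-like cells it was at 34.2 and 39.0 CPM (0.18, -0.14 to 0.49). Ppy/Pyy-leading cells had 10 UMIs in WT and 40 in *Npc1*-/- (1.69, 0.71 to 2.90), below 5 CPM and so not tested against the limit. Mesenchymal-like cells went the other way (74.5 and 41.4 CPM, -0.78, -1.52 to -0.09). Differences between the classes were not tested.

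*Gpx3* was lower in α-like cells of the *Npc1*-/- library without passing the limit. It fell from 18370 UMIs (994 CPM) to 13819 UMIs (805 CPM), a ratio of -0.33 (-0.36 to -0.30). The ratio was -0.44 below and -0.26 above the *Ppy* and *Pyy* median. The ratio was -0.31 (-0.38 to -0.24) in Ppy/Pyy-leading and -0.14 (-0.27 to -0.02) in δ-like cells. The *Npc1*-/- library was lower in all 3 hormone classes with high *Gpx3*. Duct-like barcodes, which entered no comparison, were not lower, at 355 CPM (85 UMIs) in WT and 381 CPM (275 UMIs) in *Npc1*-/-. The remaining members in α-like cells lay between -0.14 and 0.09, among them *Gpx1* with 72.0 and 66.5 CPM (-0.14, -0.26 to -0.03), *Gclm* with 116 and 115 (-0.04) and *Gpx4* with 280 and 285 (0.00).

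**Figure D4:**
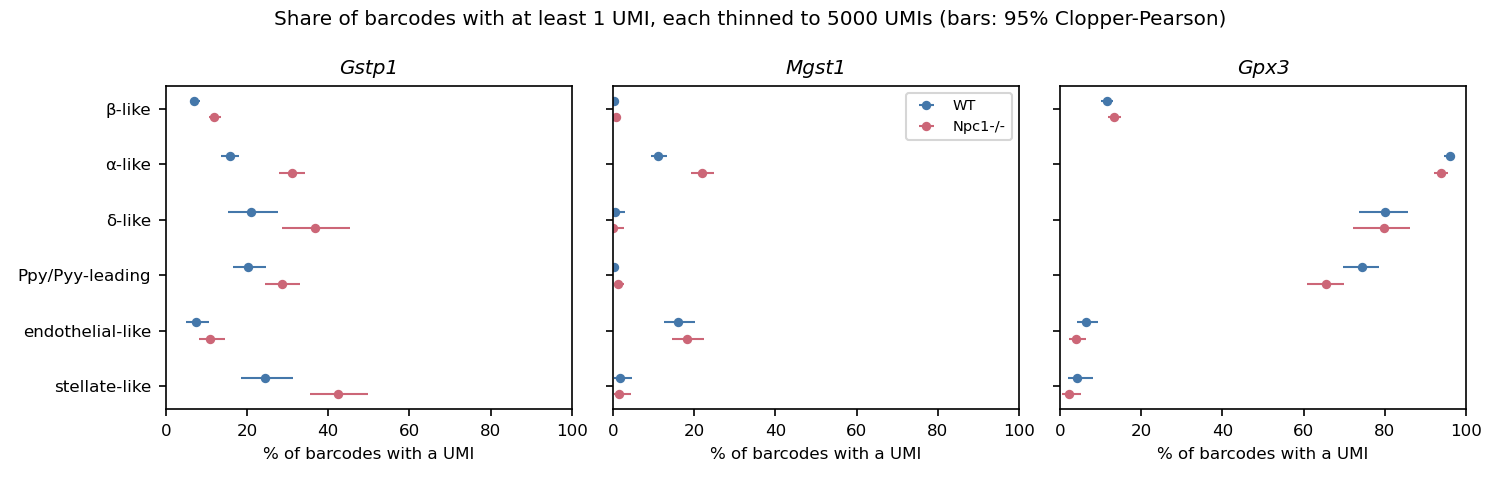
Percentage of cells with at least 1 UMI of *Gstp1*, *Mgst1* or *Gpx3* in 6 classes, each cell thinned to 5000 UMIs, for the WT (blue) and Npc1-/- (red) library with 95% Clopper-Pearson bars. The *Mgst1* share is 11.2% and 21.9% in α-like cells and below 1% in β-like cells, and the *Gpx3* share is above 90% in α-like cells.

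In δ-like cells 1 of the 8 members tested was higher (*Gstp1*) and 0 were lower, beside 8.67% and 7.67% of all genes, and *Gpx1* was at 188 and 138 CPM (-0.46, -0.66 to -0.26). In Ppy/Pyy-leading cells 1 of 8 was higher (*Gstp1*) and 1 lower, beside 3.14% and 3.6%. The lower one, *Gsta4*, rested on 49 and 33 UMIs (6.01 and 3.53 CPM, -0.82, -1.51 to -0.16).

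In endothelial-like cells *Gstp1* was higher and *Gpx3* lower among 8 members tested, beside 3.95% and 5.63% of all genes. *Gpx3* had 84 UMIs (19.9 CPM) in WT and 36 UMIs (6.75 CPM) in *Npc1*-/-, a ratio of -1.56 (-2.18 to -1.0). *Gcg* in the same cells went from 1363 to 816 CPM and insulin from 16378 to 8948 CPM, and their part in the *Gpx3* ratio was not tested. In stellate-like cells *Gstp1* and *Gstm1* (67.1 and 96.6 CPM, 0.52, 0.16 to 0.88) were higher, and *Gpx3* lower, of 7 tested, beside 9.62% and 10.0% of all genes. The interval of *Gpx3* there spanned 0 (14 and 9 UMIs, -0.71, -2.13 to 0.57). *Gstm1* lay just past the limit there and *Gclc* (41 and 31 UMIs, -0.50, -1.22 to 0.21) just inside it.

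The smaller classes gave wider intervals and a higher background. In mesenchymal-like cells 4 of 9 members (*Gstp1*, *Gpx3*, *Gclm* and *Gsta4*, the last from 2 and 4 UMIs) were higher and 2 lower, beside 18.5% and 20.6% of all genes. *Gpx1* went from 175 to 101 CPM (-0.73, -1.19 to -0.29) and *Mgst1* from 74.5 to 41.4 (-0.78, -1.52 to -0.09). In macrophage-like cells *Gstm1* and *Gpx3* were higher and *Gclm* lower of 8 tested, beside 21.5% and 23.4%. *Gclm* had 53 and 24 UMIs there (80.7 and 42.5 CPM, -0.87, -1.65 to -0.17). The interval of *Gstm1* in these cells spanned 0 (20 and 24 UMIs, 0.51, -0.40 to 1.45). In Schwann-like cells 2 of 8 were higher (*Gstp1* and *Gstm1*) and 4 lower (*Gsta4*, *Gpx3*, *Gclc* and *Gclm*), beside 24.5% and 25.1%, with *Gsta4* at 185 and 35.0 CPM (-2.39, -3.77 to -1.33). The intervals there spanned 0 for *Gclc* (4 and 3 UMIs, -0.57, -3.39 to 1.94) and *Gclm* (24 and 19 UMIs, -0.54, -1.49 to 0.39). The same held for *Gstm1* (7 and 17 UMIs, 1.02, -0.27 to 2.59).

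The wider pathway was followed by lists in β-like cells, where, as above, 2.16% of all genes tested were higher and 2.12% lower. Of 25 transferase genes 9 were tested, 1 was higher and 0 lower. The higher one was *Gstp1*, the gene picked for this contrast. The median of the 9, with *Gstp1* included, was 0.26, and 7 of the 9 lay above the median gene. Apart from *Gstp1* (0.79), the highest were *Mgst3*, a microsomal transferase, at 21.5 and 31.6 CPM (0.43, 0.33 to 0.54), *Gsto1* at 9.16 and 12.2 (0.29), *Gstt2* at 9.07 and 12.0 (0.28) and *Gstt1* at 16.1 and 21.0 (0.26). These 4 were named after their values were seen. In α-like cells, 2 of 11 transferases tested were higher (*Gstp1* and *Mgst1*) and 0 lower, with a median of 0.12. Of 8 peroxidase genes 4 were tested in β-like cells and 0 passed, with a median of -0.06.

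Of 22 genes for the making, breakdown and transport of glutathione and cysteine, 11 were tested in β-like cells, 0 were higher and 1 lower, with a median of -0.07. The lower one was *Slc3a2*, the heavy chain of several amino acid exchangers, at 97.0 and 74.5 CPM (-0.50, -0.56 to -0.44). The next list held 28 genes around NRF2 (*Nfe2l2*), the factor that binds antioxidant response elements. Beside genes known to respond to NRF2, it includes *Nfe2l2* itself and the regulators *Keap1* and *Bach1*. Of the list 19 were tested, 1 was higher and 0 lower, with a median of -0.10. The higher one was *Abcc4*, an organic anion exporter, at 7.25 and 12.4 CPM (0.66, 0.48 to 0.84). *Nqo1*, often used as a readout of NRF2, was at 6.44 and 5.71 CPM (-0.29, -0.52 to -0.07), and was named after its value was seen.

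Of 21 thioredoxin, peroxiredoxin, glutaredoxin and related genes 18 were tested, 1 was higher and 1 lower, with a median of -0.20. *Txnip*, the thioredoxin-binding protein induced by glucose, went from 66.4 to 197 CPM (1.45, 1.39 to 1.5). *Txnrd2*, the mitochondrial thioredoxin reductase, went from 8.61 to 6.48 CPM (-0.53, -0.73 to -0.33). All 16 selenoprotein and selenocysteine genes were tested and 0 passed (median -0.03). In α-like cells 0 genes of the thioredoxin, NRF2 and selenoprotein lists passed in either direction, and *Cbs*, which makes cystathionine, was the 1 lower gene of the synthesis list at 16.3 and 10.3 CPM (-0.69, -0.97 to -0.42).

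In δ-like cells, with their higher background of 8.67% and 7.67%, more genes of the lists passed. *Cat*, *Txnip* and *Txnrd3* were higher among 20 thioredoxin and related genes tested, and 0 were lower. Of 23 NRF2 genes tested, *Abcc4*, *Cat* and *G6pdx* were higher and *Ephx1* lower, and of 16 selenoprotein genes *Selenop* was higher and *Scly* lower. The medians of these 3 lists were 0.04, -0.06 and 0.01. In the synthesis list, *Slc25a40* was higher and *Anpep* and *Gss* were lower of 13 tested in δ-like cells. *Gstp1* was higher and *Gstm4* lower of 12 transferases, and 0 of 4 peroxidases passed. The medians of the synthesis, transferase and peroxidase lists were 0.02, 0.09 and -0.01. In Ppy/Pyy-leading cells (3.14% and 3.6% of all genes), *Txnrd2* was higher and *Glrx* lower of 20, *G6pdx* was lower of 22 NRF2 genes, and 0 of 16 selenoprotein genes passed, with medians of -0.01, -0.08 and 0.01. There *Gstp1* was higher and *Gsta4* and *Gstm2* were lower of 13 transferases (median -0.05). *Gpx7* was lower of 5 peroxidases (median -0.31), and 0 of 11 synthesis genes passed (median -0.11).

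Over the 16 values of 8 classes in 2 libraries, the genes with the pattern most like *Gstp1*, by Pearson r of log2(CPM + 10) among 6245 genes, were *Map3k2* (0.90), *Amn1* (0.89), *Sec61a2* (0.88), *Mthfd2l* (0.87) and *Btf3l4* (0.85). For *Gpx3* they were *Gria2* (0.98), *Sfrp5* (0.96), *Gars* (0.95), *Calb1* (0.95) and *Gc* (0.95). Of the genes like *Gpx3*, *Gria2*, *Sfrp5*, *Calb1* and *Gc* had 0 CPM in at least 1 class and library. The points share 2 libraries and the free RNA in them, so these correlations are descriptions.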

How the data were processed

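Single cell RNA sequencing of islet cells was analysed from 2 libraries. The values are raw UMI counts, which the authors deposited for each barcode without normalization; per the labels, Cell Ranger 3.1.0 and mm10 were used. The labels name version 3 of the reagent kit and the methods another. Kept barcodes had over 1000 genes, under 50000 UMIs, under 10% mitochondrial and at most 0.1% haemoglobin UMIs. Classes were the leading hormone (at least 10% of UMIs), else the marker list with most UMIs, with at least 3 markers detected and 2 times the UMIs of the next list. Doublets were kept: Scrublet (scanpy 1.11.5) marked 1.43% of WT and 0.164% of *Npc1*-/- barcodes, which is too few to have worked in the latter. The alternative without expected doublets, given below, left out the barcodes with the highest scores of the same run, 317 in WT and 261 in *Npc1*-/-. It depends on those scores, and how many doublets it removed in either library was not tested. Counts were summed by library and class and given as CPM.

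All 95% intervals are exact and hold counting error alone, by the Poisson law for sums, the Clopper-Pearson method for percentages and a conditional binomial for ratios. Genes with at least 5 CPM and more than 3 counts in either library were tested against the limit of 0.5. No test was made between genotypes. The members, lists and rules were chosen with earlier results of these data known. Named genes were the members, *Gstp2*, *Gstp3*, *Npc1*, genes of the pathway lists past the limit in β-like cells, and the 5 genes most like *Gstp1* and *Gpx3*. Chosen after their values were seen were *Mgst3*, *Gsto1*, *Gstt1*, *Gstt2* and *Nqo1*, and list genes past the limit in α-like, δ-like or Ppy/Pyy-leading cells. Counts were simulated for 8613 genes of β-like cells, of which 200 were changed. Intervals covered the set ratio for 93.5% of changed and 95.2% of unchanged genes. These counts were drawn with Poisson counting error alone, which the intervals assume. The coverage thus does not bear on differences between mice or preparations. Gene positions and transcripts came from GENCODE on GRCm38. Python 3.11.15, numpy 2.4.6, scipy 1.17.1, R 4.3.3, edgeR 4.0.16 and DESeq2 1.42.0 (the last 2 for scaling factors) were used.

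Alternatives were a looser (over 500 genes, under 20% mitochondrial UMIs, no UMI limit) and a stricter cell filter, expected doublets left out (0.8% per 1000 barcodes), a hormone limit of 20%, barcodes with a further hormone or with stress genes left out, 5 other scalings, limits of 1, 20 or 0 CPM, a prior count of 5, and thinning to 2500 UMIs or none.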

Additional observations from a re-analysis of the deposited data

Results flagged for a closer look

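With 1 library per group, no sample could be compared with others of its group. *Gpx3* passed the limit in opposite directions in different classes, with counting intervals on 1 side of 0: it was lower in *Npc1*-/- in endothelial-like (-1.56) and Schwann-like cells (-2.53, from 7 and 1 UMIs), and higher in mesenchymal-like (1.35, from 7 and 17 UMIs) and macrophage-like cells (1.21, from 9 and 18 UMIs). *Mgst1* was higher in α-like (1.13) and lower in mesenchymal-like cells (-0.78). *Gclm* was higher in mesenchymal-like (0.54) and lower in macrophage-like cells (-0.87). Passing the limit was common in the smaller classes. Of all genes tested, 18.5% were higher and 20.6% lower in mesenchymal-like cells, and 21.5% and 23.4% in macrophage-like cells. In Schwann-like cells the shares were 24.5% and 25.1%. These differences between classes were not tested.

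Barcodes outside the kept set also held *Gstp1*. In insulin-leading barcodes with 50000 UMIs or more it was at 13.4 CPM in WT and 26.5 in *Npc1*-/- (153 and 343 barcodes). In insulin-leading barcodes with a mitochondrial share of 10% or more it was at 4.24 CPM in WT (14 UMIs) and 17.6 in *Npc1*-/- (32 UMIs). Such sets were listed only if the *Npc1*-/- interval of *Gstp1* lay above that of WT, the direction it was chosen for. The high-mitochondrial barcodes also had more *Gpx3* in *Npc1*-/-, at 17.6 CPM (13.3 to 22.7) in WT and 33.0 (25.2 to 42.4). *Gclm* (44.0 and 57.2 CPM) and *Gpx4* (113 and 124) had overlapping intervals there. With 50000 UMIs or more, *Gpx3* was at 52.0 and 47.1 CPM. *Gstp3* was counted in the 70 T cell-like barcodes of the WT library at 66.7 CPM (26 UMIs), and the *Npc1*-/- library had 0 such barcodes.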

How the results depend on the processing

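No paired analysis was possible because each genotype has 1 library and the labels carry no replicate numbers, and leaving out a replicate was not possible either. The *Gstp1* ratio in β-like cells was 0.77 to 0.91 over 16 alternatives, among them stress barcodes and expected doublets left out together (0.86, chosen after seeing the data). It was 0.27 in cells without a *Ucn3* UMI and 0.61 in *Ppy*- and *Pyy*-rich cells. With 0 CPM as the limit, 2 members were higher in β-like cells in place of 1 (*Gsta4*, 15 and 36 UMIs, joined), and 1 was lower in α-like cells in place of 0, as it was at 1 CPM (*Gsta4*, 30 and 13 UMIs). The other counts of members in β-like and α-like cells stayed within 1.5 times. Elsewhere *Gstp1* in δ-like cells was past the limit in 14 of 16 alternatives and in stellate-like cells in 15, *Gpx1* in δ-like cells was past it downward in 2, and *Gstm1* was past it in 12 in stellate-like and in 7 in macrophage-like cells. Of 46 single values under 16 alternatives each, 710 stayed inside their counting interval, 25 moved out and 1 past the limit changed sign. This was *Gstm1* in macrophage-like cells, at -0.00435 without stress barcodes and expected doublets, and it was tallied for that reason. All other mesenchymal- and macrophage-like values, and *Gstp1* in β-like cells, are outside this tally. Some of those moved out of their interval. *Gpx3* went from 1.35 to 4.35 in mesenchymal-like cells without stress barcodes. In macrophage-like cells it went from 1.21 to 2.81 without expected doublets. Of 35 tallied values inside the limit, 17 changed sign in at least 1 alternative, among them *Gpx3* in β-like cells, which was above 0 in 8 of 16. *Gpx3* in endothelial-like cells was -0.79 without expected doublets and -2.33 without stress barcodes, and in β-like cells 0.20 without expected doublets. The causes were not tested. Thinning to 5000 UMIs put 9 members higher in *Npc1*-/- by share of β-like cells, thinning to 2500 put 6 and no thinning 8. The same count over all genes was not made, and on plain CPM the median gene of β-like cells was itself 0.12 higher. Nothing is read from these counts of shares. Genes under 5 CPM in classes of under 100 cells rest on few molecules.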

Other observations

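Duct-like barcodes (17 in WT and 40 in *Npc1*-/-) entered no comparison. Their *Gpx3* was at 355 and 381 CPM, their *Gclm* at 163 and 270, and their *Mgst1* at 167 and 66.5. B cell-like barcodes, 142 in WT and 1 in *Npc1*-/-, had *Gpx1* at 404 CPM in WT. Acinar-like barcodes had *Gstp1* at 90.3 CPM in WT (5 barcodes, 4 UMIs, 24.6 to 231) and 112 CPM in *Npc1*-/- (9 barcodes, 19 UMIs, 67.3 to 174), with intervals that overlap.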
